A study of Caenorhabditis elegans with 5 samples.

Results

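The nuclear genes of the respiratory chain were examined for binding of ATTF-4 in C. elegans. ATTF-4 has an AT-hook, a small protein motif known for contacts with the minor groove of DNA. The set was a list of 42 genes of complexes I to V, cytochrome c and the assembly of cytochrome oxidase, named by function, with earlier results of these data known, out of 19973 nuclear protein-coding genes. Binding was measured by ChIP-seq, in which DNA bound by a protein is pulled down with an antibody and sequenced. The samples were whole L4 larvae, the last larval stage, with males and females pooled, and their age is given as unknown. All came from strain OP219, which carries the unc-119(ed3) III allele and the transgene wgIs219, from which attf-4 (C05D10.1) is made with GFP-FLAG at its C-terminal end. The antibody is labelled attf-4, and the labels do not name the promoter of the transgene. Because whole animals were used, a peak does not say in which tissue the gene was bound. There were 5 libraries in 1 group: replicate 1 had 1 library and replicates 2 and 3 had 2 each, and the labels number the 3 replicates as biological. The study had no second condition, so the 42 genes were set beside all nuclear protein-coding genes as a description, without a test.

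The respiratory chain lies in the inner mitochondrial membrane. Complexes I and II pass electrons from NADH and succinate to ubiquinone, complex III passes them to cytochrome c, and complex IV, cytochrome oxidase, passes them to oxygen. The proton gradient built on the way drives ATP synthase, complex V. A few subunits are encoded by the mitochondrial genome, and most, including all those described here, are encoded in the nucleus and imported.

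The deposited lists gave each peak a signal value from the peak caller, which is the authors' own unit and ranks peaks only within a list. On the ce11 build the list pooled over replicates held 24897 peaks, of which 24869 were nuclear. The final set, chosen by the irreproducible discovery rate (IDR, a measure of how well replicates rank the same peaks), held 173 peaks, of which 147 were nuclear. The lists of replicates 1, 2 and 3 held 30000, 22227 and 30000 entries. Except for the final set, the lists were made to take in background as well, so presence in them alone is weak evidence of binding. Strength was therefore read from the signal rank, the q-value and membership of the final set. Read depth is unknown here. A gene had a peak where a summit lay in its window, from 1000 bp upstream of its annotated 5' end to its 3' end.

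In every list the share with a peak was higher among the 42 listed genes than among all genes. Their strongest peaks were at cytochrome oxidase, ATP synthase and complex I genes. This describes the listed genes and not the whole chain. Further chain and assembly genes, outside the list, had no final-set peak, where the share over all genes was 0.596%. Among them, q under 0.05 was passed at 1 of 8 and 0 of 18 complex I genes. It was passed at 0 of 15 genes of complexes III and IV and 1 of 4 of ATP synthase, against 4.67% of all genes. Lists this short cannot show whether their shares differ from those of all genes. A pooled peak lay in the window of 35 of 42 respiratory chain genes (83.3%), against 57.9% of all nuclear protein-coding genes. One of the 5000 strongest pooled peaks lay at 18 respiratory chain genes (42.9%), against 17.3% of all genes. One of the 1000 strongest lay at 9 of the 42 (21.4%), against 3.87% of all genes. A pooled peak with q under 0.05, a −log10 q of at least 1.3, lay at 10 of the 42 (23.8%), against 4.67% of all genes. A final-set peak lay at 4 of the 42, namely cox-5A, cox-5B, atp-3 and ndub-8 (9.52%), against 0.596% of all genes, or 119 genes. In the 5' window alone, which ends 200 bp past the 5' end and starts 1000 bp before it, 27 respiratory chain genes had a pooled peak (64.3%), against 32.2% of all genes. The 4 final-set peaks all lay in that window (9.52%), against 0.386% of all genes. Respiratory chain genes had a median length of 1487 bp, against 2027 bp for all genes. Among the 41 members between 523 and 8013 bp long the final-set share was 9.76%, against 0.506% of the 17183 genes within those lengths. For q under 0.05 the shares in that length range were 24.4% of members and 4.24% of all genes.

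**Figure D1:**
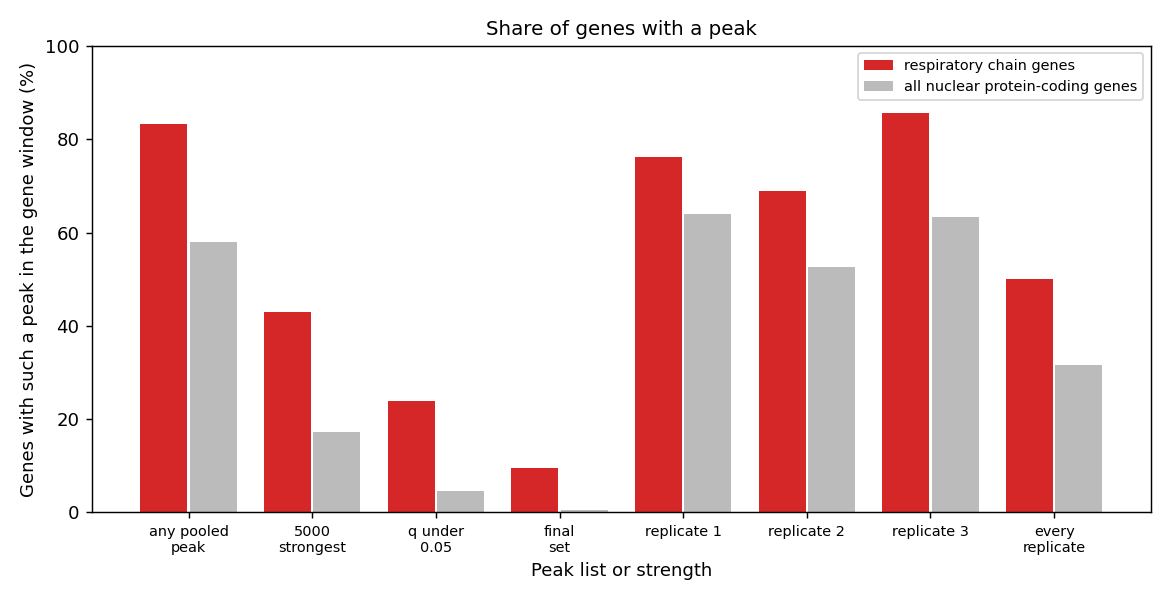
Share of genes (%, vertical axis) with a peak in the gene window under each list or strength (horizontal axis), for the 42 respiratory chain genes (red, left bars) and all 19973 nuclear protein-coding genes (grey, right bars). The red bar is the higher one in each pair, with 83.3% against 57.9% for any pooled peak and 9.52% against 0.596% for the final set.

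The 12 members with the strongest pooled peaks were described individually. For the 7 of them shown next, the 101 bases centred on the summit are given 5' to 3' on the strand of the gene, so that the sequence under each peak can be compared with the values below. The sequences are from the RefSeq copy of WBcel235, which is ce11. They come from chrIII:12905186-12905286 (plus strand) for cox-5A, chrII:13872627-13872727 (plus) for ndub-8, chrIII:5080727-5080827 (plus) for cox-6A and chrIII:881116-881216 (plus) for ucr-2.3. The other three come from chrX:8546217-8546317 (minus) for sdha-1, chrIII:10334082-10334182 (plus) for mev-1 and chrIII:2785997-2786097 (plus) for cox-6B. Capitals mark the words GTCTC and CTGCG and their reverse complements GAGAC and CGCAG, which were picked after the sequences had been seen.
cox-5A: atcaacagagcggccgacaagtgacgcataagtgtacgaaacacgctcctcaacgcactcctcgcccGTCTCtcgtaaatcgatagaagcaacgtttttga
ndub-8: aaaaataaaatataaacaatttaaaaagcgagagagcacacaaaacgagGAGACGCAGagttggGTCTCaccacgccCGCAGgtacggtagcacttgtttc
cox-6A: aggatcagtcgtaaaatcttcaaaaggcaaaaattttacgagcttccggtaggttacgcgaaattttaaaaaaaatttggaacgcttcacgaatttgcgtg
ucr-2.3: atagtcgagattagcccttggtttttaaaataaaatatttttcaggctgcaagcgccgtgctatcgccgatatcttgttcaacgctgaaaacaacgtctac
sdha-1: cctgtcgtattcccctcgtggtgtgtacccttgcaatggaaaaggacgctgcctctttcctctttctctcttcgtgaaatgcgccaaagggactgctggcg
mev-1: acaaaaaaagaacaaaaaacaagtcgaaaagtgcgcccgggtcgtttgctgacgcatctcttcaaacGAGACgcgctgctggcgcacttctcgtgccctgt
cox-6B: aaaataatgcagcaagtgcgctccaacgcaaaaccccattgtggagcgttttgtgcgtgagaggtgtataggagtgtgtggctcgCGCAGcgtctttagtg

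The ndub-8 summit carried both words more than once, in a run where GAGAC and CGCAG overlap by their shared C. The summits of cox-5A and mev-1 carried the GTCTC word, that of cox-6B the CTGCG word, and those of cox-6A, ucr-2.3 and sdha-1 neither. Over all 35 members with a pooled peak, GTCTC on either strand lay within 50 bp of the strongest summit at 12 (34.3%), against 15% of the 24869 nuclear pooled summits. Among the 973 nuclear summits of the 1000 strongest peaks the share was 30.6%, close to that of the members. The longer word GGTCTC, which contains GTCTC, was found at 7 members (20%), against 3.04% of all nuclear summits and 5.45% of the strongest ones. Those 7 were ndub-8, cyc-1, lpd-5, asg-2, nuo-2, asb-2 and cox-15. GGTCTC, like the other words, was chosen with earlier results of these data known. A higher share at these same members is therefore no independent support. CTGCG was found at 7 members (20%), against 8.75% of all nuclear summits and 21.5% of the strongest. An AT-rich word, AAAAAT, was found at 17 members (48.6%), against 40.1% of all nuclear summits and 22.9% of the strongest. Within 100 bp of the summit the members had a median GC content of 40.3% (25.9% at cox-11 to 49.3% at isp-1), against 37.3% over all nuclear summits and 42.8% over the 973 strongest. A word match is a description of the letters and not a binding site.

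Over the 35 members with a pooled peak the strongest signal had a median of 13.1 and ran from 7.37 at cox-15 to 38.6 at cox-5A. The median over all genes with a pooled peak was 10.4, the lowest signal in the final set was 29.4, and the highest nuclear signal was 94.2. The members' windows held 75 pooled peaks, and no peak fell in the windows of more than 1 member.

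**Figure D2:**
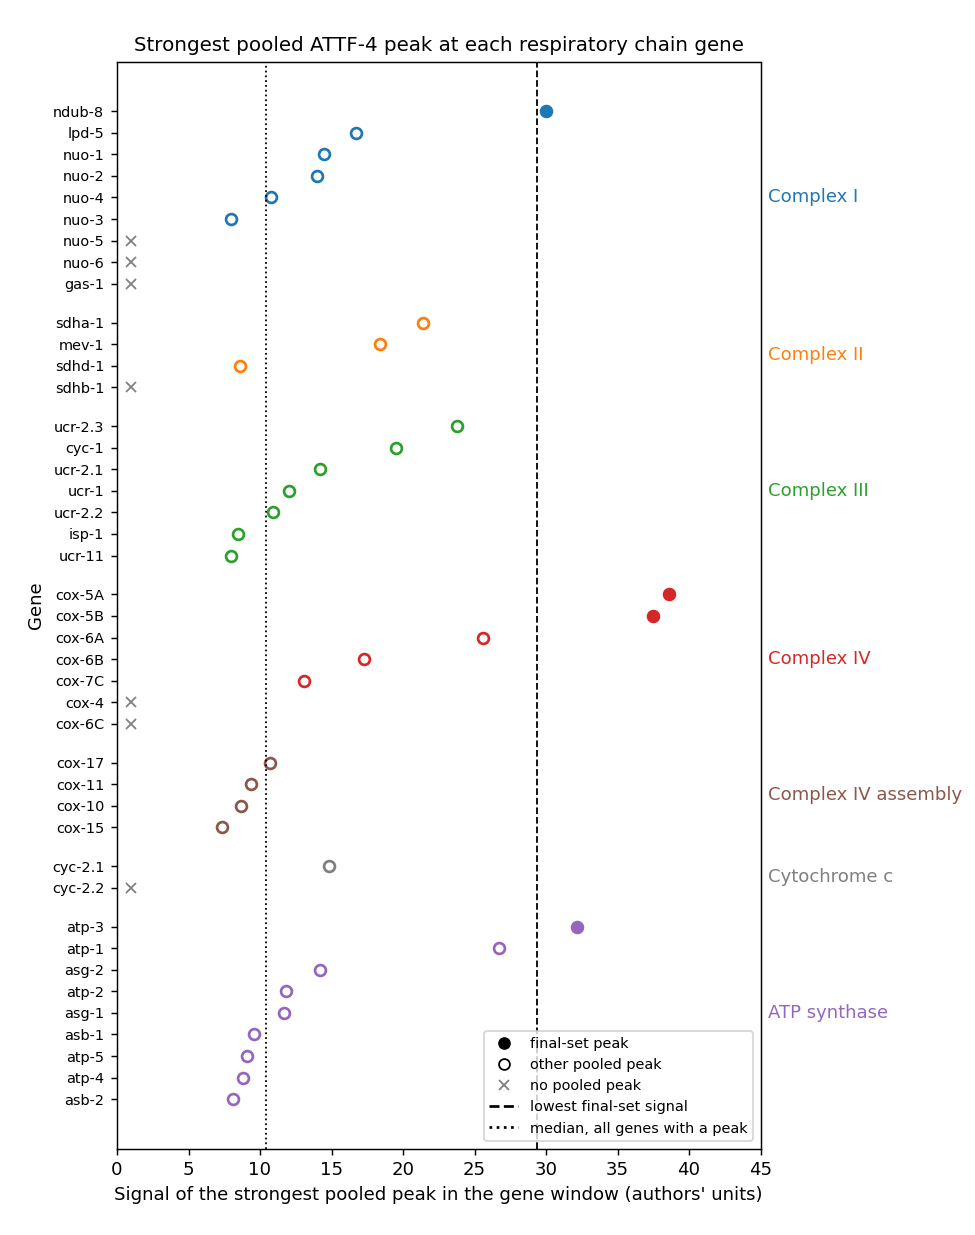
Signal of the strongest pooled peak in the gene window (horizontal axis, authors' units) for each of the 42 genes (vertical axis), grouped by complex. Filled circles are final-set peaks, open circles other pooled peaks and crosses genes with no pooled peak. The 4 filled circles lie right of the dashed line at 29.4, the lowest final-set signal, and the 4 assembly genes lie near or left of the dotted line at 10.4, the median of all genes with a peak.

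Complex I, NADH dehydrogenase, takes electrons from NADH. Of its 9 listed genes 6 had a pooled peak, against 57.9% of all genes, with a median signal of 14.3 and a range of 7.97 to 30. The strongest was at ndub-8, an accessory subunit (chrII:13872517-13872836, signal 30, rank 164), which was in the final set. Its summit lay 192 bp upstream of the 5' end of ndub-8 and 436 bp from that of the divergent gene cup-14. The strongest peaks in the ndub-8 window had signals of 11.6, 3.14 and 12.9 in replicates 1, 2 and 3, at ranks 331, 10713 and 651. Replicate 2 was the low one, near the middle of its list. At lpd-5, another accessory subunit, the pooled peak (chrI:4373189-4373508) had a signal of 16.7 and a −log10 q of 1.1, short of q under 0.05. It lay 331 bp upstream of lpd-5 and 307 bp from the 5' end of cec-10. At that place the lpd-5 signals of replicates 1, 2 and 3 were 7.20, 6.74 and 3.61, with summits 88, 96 and 83 bp from the pooled one, and replicate 3 was far down its list at rank 28735. The peripheral-arm subunit genes nuo-1 and nuo-2 had signals of 14.5 and 14, and the accessory subunit genes nuo-4 and nuo-3 had 10.8 and 7.97. The nuo-1 summit lay inside the annotated non-coding RNA C09H10.11, and no replicate had a summit within 100 bp of it. The nuo-2 summit was nearer to the 5' end of T10E9.14 (362 against 746 bp). The nuo-3 summit was nearer to that of coq-3 (436 against 784 bp). A stronger pooled peak, of signal 19.6 and rank 828, lay 169 bp past the end of nuo-4, outside its window, and was not counted. No pooled peak was found at nuo-5, which encodes the large iron-sulfur subunit, at the accessory subunit gene nuo-6, or at gas-1, a core subunit near the quinone site.

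Complex II, succinate dehydrogenase, also belongs to the citric acid cycle. Of its 4 genes 3 had a pooled peak and 2 passed q under 0.05, against 57.9% and 4.67% of all genes. At sdha-1, the flavoprotein, the peak (chrX:8546107-8546426) had a signal of 21.4, rank 569 and a −log10 q of 1.73, with its summit 246 bp upstream of the gene. It lay inside the annotated non-coding RNA D2021.5 and 63 bp from the snoRNA D2021.6, so the interval cannot be assigned to sdha-1 alone. The strongest peaks in the sdha-1 window had signals of 8.36, 5.35 and 6.82 in replicates 1, 2 and 3, and their summits lay 13, 29 and 2 bp from the pooled one. At mev-1, the cytochrome b subunit, the pooled peak (chrIII:10333972-10334291) had a signal of 18.4, rank 1064 and a −log10 q of 1.38. Only replicate 3 had a peak in the mev-1 window, with a signal of 14.8 at rank 372. The nearest 5' end was that of jmjd-4, at 114 bp, and that of mev-1 was at 145 bp on the other side. The membrane anchor gene sdhd-1 had a signal of 8.59, with its summit nearer to the 5' end of ilkp-1 (162 against 180 bp). The iron-sulfur subunit gene sdhb-1 had no pooled peak.

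All 7 listed genes of complex III, the cytochrome bc1 complex, had a pooled peak, against 57.9% of all genes. Their signals had a median of 12 and a range of 7.96 to 23.8, and none was in the final set. The strongest was at ucr-2.3, a core protein gene (chrIII:881006-881325, signal 23.8, rank 386, −log10 q 2.04). It was not at the start of the gene: the summit lay in an exon, 1306 bp past the 5' end. The ucr-2.3 window had signals of 6.24, 5.0 and 12.7 in replicates 1, 2 and 3, and the replicate 2 summit nearest to the pooled one was 515 bp away. Its paralogs ucr-2.1 and ucr-2.2 also had their strongest summits in exons, 2038 and 1003 bp past the 5' end, with signals of 14.2 and 10.9. The other core protein gene, ucr-1, had 12, at 1589 bp. At cyc-1, which encodes cytochrome c1, the peak (chrI:8024629-8024948) had a signal of 19.5, rank 841 and a −log10 q of 1.52, with its summit 367 bp upstream. Replicates 1 and 3 had summits 8 and 26 bp from it, with signals of 6.52 and 14.1. The strongest cyc-1 peak of replicate 2, with a signal of 6.56, lay 1703 bp past the 5' end. The Rieske protein gene isp-1 had a signal of 8.44 at rank 16237, with its summit 13 bp from the 5' end of islo-1. That summit lay inside the annotated non-coding RNA F42G8.16. The small subunit gene ucr-11 had 7.96, at rank 18699.

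Complex IV, cytochrome oxidase, had the 2 highest signals of the chain. Of its 7 structural genes 5 had a pooled peak, against 57.9% of all genes, and 2 were in the final set, against 0.596%. The 5 had a median signal of 25.6 and a range of 13.08 to 38.6. The peak at cox-5A (chrIII:12905076-12905395) had a signal of 38.6 and rank 74, and its summit lay 255 bp upstream, with no other protein-coding 5' end within 5000 bp. In the cox-5A window the replicates had signals of 12.4, 9.43 and 19.6, at ranks 239, 171 and 128, so it was high in every list. The replicate 2 and 3 summits lay 8 and 30 bp from the pooled one, while the nearest of replicate 1 was 273 bp away, 18 bp past the 5' end. The peak at cox-5B (chrI:9788614-9788933) had a signal of 37.5 and rank 84, with its summit in an exon 49 bp past the Ensembl 5' end. The cox-5B window had signals of 10.9, 5.04 and 20 in replicates 1, 2 and 3, at ranks 445, 2884 and 119, so replicate 2 was the low one. Its strongest summit lay 373 bp past the 5' end. The replicate 2 summit 29 bp from the pooled one had a signal of 4.6, rank 3911. At cox-6A the peak (chrIII:5080617-5080936, signal 25.6, rank 295, −log10 q 2.07) lay 947 bp upstream of the gene and 21 bp from the snRNA gene F54D8.7, which is closer. The strongest peaks in the cox-6A window had signals of 10.1, 3.28 and 11.7 in replicates 1, 2 and 3. None of these lay within 100 bp of the pooled summit. Those of replicates 1 and 3 were 171 and 127 bp from it. They were 29 and 73 bp from a weaker pooled peak of signal 10.1, 747 bp upstream. That of replicate 2 lay 734 bp past the 5' end of cox-6A. A weak replicate 2 summit, of signal 2.3 and rank 18550, lay 98 bp from the pooled one.

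At cox-6B the annotations differ. The Ensembl gene is 87197 bp long and the RefSeq gene 553 bp, with 5' ends 86539 bp apart. The Ensembl window held 20 pooled peaks. The strongest (chrIII:2785887-2786206, signal 17.3, rank 1344, −log10 q 1.23) lay 86384 bp past the Ensembl 5' end, which is 155 bp upstream of the RefSeq 5' end. It also lay 99 bp from the 5' end of Y71H2AM.20. At that place replicate 1 had a signal of 3.45 and replicate 3 one of 12.3, and replicate 2 had no summit within 100 bp. The last structural gene with a pooled peak, cox-7C, had 13.1, nearer to the 5' end of F26E4.4. The subunit genes cox-4 and cox-6C had none.

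Each of the 4 genes for cytochrome oxidase assembly had a pooled peak, against 57.9% of all genes. Signals were 10.7 at the copper chaperone gene cox-17 and 9.38 at cox-11, which acts in copper insertion. They were 8.68 and 7.37 at cox-10 and cox-15, which act in heme A synthesis. None passed q under 0.05, against 4.67% of all genes. The cox-11 summit was nearer to the 5' end of JC8.4 (285 against 934 bp).

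Cytochrome c carries electrons between complexes III and IV and has a pair of genes. The cyc-2.1 window held a pooled peak of signal 14.8 in an intron, 78 bp past the Ensembl 5' end. Its strongest replicate peaks had signals of 7.72, 11.7 and 16.6, at ranks 2030, 74 and 253 of replicates 1, 2 and 3, and lay 798, 227 and 77 bp past the 5' end. The window was thus strong in replicates 2 and 3 but at different places. A final-set peak with a signal of 67.6, rank 31, lay 37 bp outside the cyc-2.1 window, nearest to Y17G9B.5, whose 5' end was 191 bp away. It was not counted. The cyc-2.2 window had no peak in the pooled list or in any replicate list, which held for no other member.

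All 9 listed genes of ATP synthase, which makes ATP from the proton gradient, had a pooled peak, against 57.9% of all genes. Their signals had a median of 11.7 and a range of 8.08 to 32.2. The strongest was at atp-3, a stalk subunit (chrI:5429782-5430101, signal 32.2, rank 128), which was in the final set. Its summit lay 34 bp upstream of the 5' end of atp-3, 215 bp from that of the divergent gene F27C1.2 and inside the non-coding RNAs F27C1.16 and F27C1.17. The atp-3 window had signals of 5.69, 7.89 and 17.9 in replicates 1, 2 and 3, at ranks 5963, 406 and 192, with replicate 1 the low one. At atp-1, the alpha subunit, the peak (chrI:12652125-12652444, signal 26.7, rank 251, −log10 q 2.22) lay 8 bp past the 5' end. The 5' end of mcrs-1, on the other strand, was 198 bp from the summit. In the atp-1 window the replicates had signals of 10.1, 9.25 and 15. The strongest atp-1 peak of replicate 2 lay 1807 bp past the 5' end, and its summit at the 5' end had a signal of 2.05, rank 21681. The beta subunit gene atp-2 had 11.8, at 850 bp past the 5' end. A stronger pooled peak, of signal 21.5, lay 91 bp past the end of atp-2 and 72 bp from the 5' end of prmt-5. Among paralogs, asg-1 and asg-2, for subunit g, had 11.7 and 14.2, and asb-1 and asb-2, for the stalk subunit b, had 9.61 and 8.08. The stalk subunit genes atp-4 and atp-5 had 8.80 and 9.11, and the atp-5 summit was nearer to the 5' end of lmtr-3 (96 against 223 bp).

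A peak lay in the window of 32, 29 and 36 of the 42 genes in replicates 1, 2 and 3 (76.2%, 69.0% and 85.7%), against 64.0%, 52.5% and 63.3% of all genes. All replicate lists had one at 21 members (50%), against 31.7% of all genes. One of the 1000 strongest peaks of a replicate lay at 7, 7 and 11 members (16.7%, 16.7% and 26.2%), against 4.07%, 4.05% and 3.9% of all genes. The 7 of replicate 1 include cox-6B and atp-2. That cox-6B summit lay 69376 bp past the Ensembl 5' end, far from the RefSeq 5' end, which is 86539 bp from the Ensembl one. The atp-2 summit lay 2118 bp past the 5' end of a gene of 2120 bp, close to the pooled peak by the 5' end of prmt-5. One of the 5000 strongest peaks of every replicate list lay at 8 members, cyc-1, ucr-1, ucr-2.3, cox-5A, cox-5B, cox-6B, cyc-2.1 and atp-1 (19%), against 3.57% of all genes. With RefSeq gene ends it was 7, without cox-6B. The peaks of a gene could lie at different places in different lists. Only 1 member had its strongest pooled summit matched within 100 bp among the 5000 strongest of each list.

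Of the 35 strongest pooled summits, 19, 11 and 21 had a summit of replicates 1, 2 and 3 within 100 bp (54.3%, 31.4% and 60%), against 36.5%, 22.3% and 49.9% for all genes with a pooled peak. Only lpd-5, sdha-1, cox-5B and atp-1 had one in every replicate (11.4%), against 3.89%. Those counts are not independent of the pooled list, which was made from the same replicates. Of the final-set genes, cox-5B was therefore the only one with all replicate summits within 100 bp. At atp-3 the replicate 1 summit was 188 bp away, at ndub-8 the replicate 3 summit 109 bp, and at cox-5A the replicate 1 summit 273 bp.

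**Figure D3:**
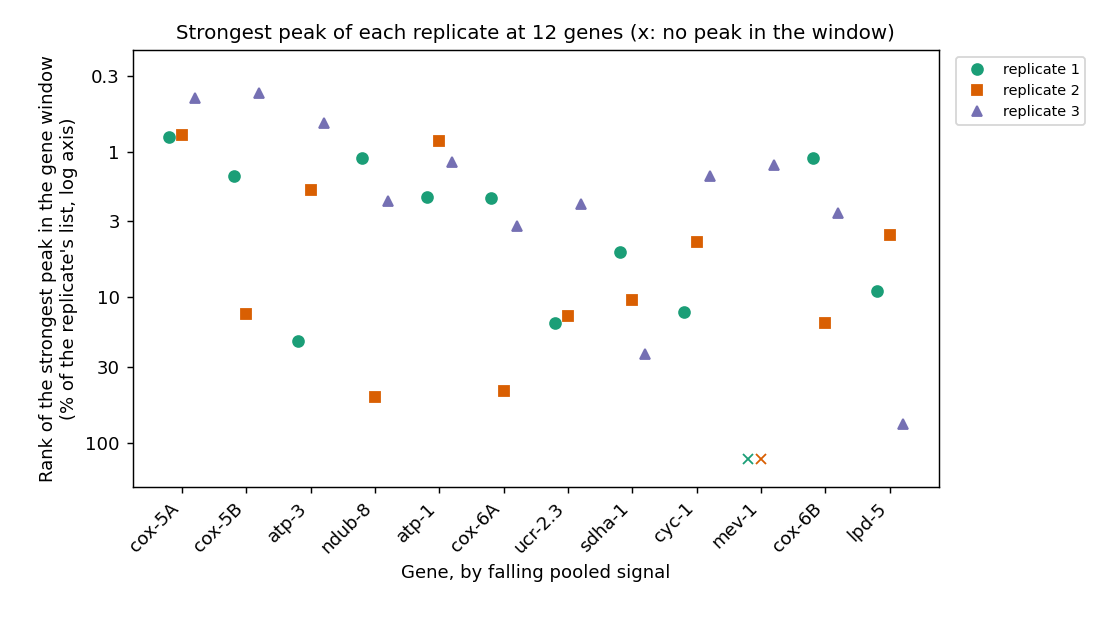
Rank of the strongest peak in the gene window as a percent of each replicate's list (vertical axis, log scale, strongest at the top) for the 12 genes with the strongest pooled peaks (horizontal axis). Symbols are replicates 1 to 3 and crosses mark no peak in the window, which occurred at mev-1 in replicates 1 and 2. The strongest peak of a replicate need not lie at the pooled summit, and the long Ensembl window of cox-6B takes in peaks far from it. At cox-5A the ranks were 0.797%, 0.769% and 0.427%, whereas at ndub-8 replicate 2 was at 48.2%.

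Of the 35 strongest summits, 19 were upstream of the annotated 5' end (54.3%), against 35.9% for all genes with a pooled peak. Within 400 bp upstream there were 15 (42.9%), against 18.2%. A further 5 lay in the first 200 bp of the gene and 11 beyond that. The window reaches 1000 bp upstream of every gene, and members are shorter, with a median of 1487 against 2027 bp. The upstream part is thus a larger share of their windows, and places were not compared at equal gene length. The member's own 5' end was the nearest one at 25 of 35 (71.4%), against 74.6% for all genes with a pooled peak, so about as often as elsewhere. Annotated 5' ends in C. elegans can be trans-splice sites rather than transcription starts, and RefSeq placed the 5' end of cox-5B 284 bp further downstream. With RefSeq gene ends no member changed its strongest peak, but some distances changed. The summit was then 235 bp upstream at cox-5B, 485 bp upstream at cyc-2.1 and 155 bp upstream at cox-6B. All of these lay inside the Ensembl gene, and the counts of place given here use Ensembl ends.

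**Figure D4:**
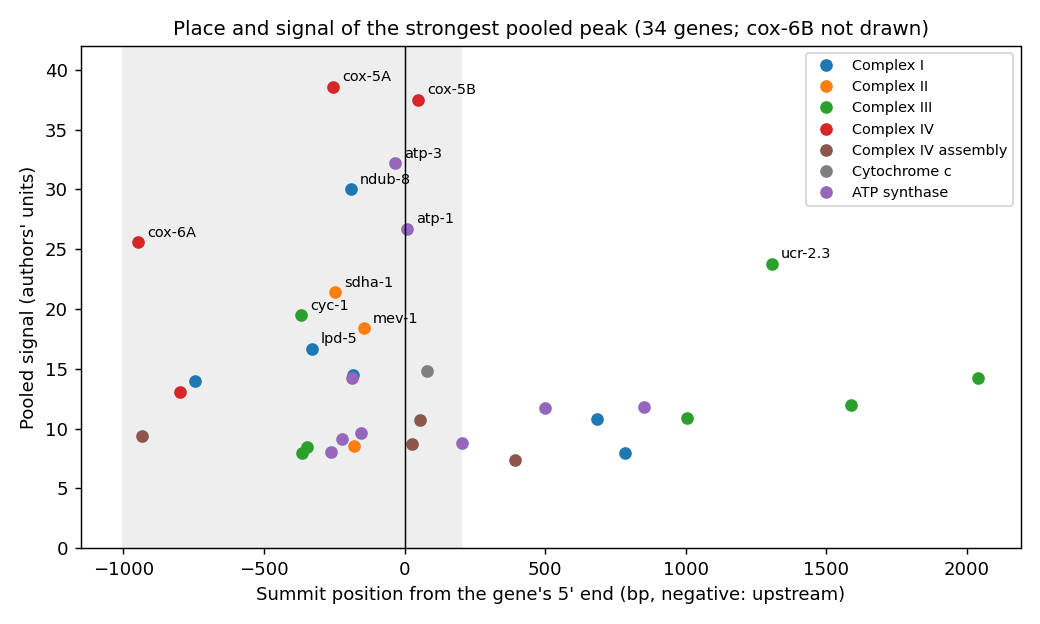
Position of the strongest pooled summit from the 5' end of the gene (horizontal axis, bp) against its signal (vertical axis, authors' units) for 34 of the 35 genes with a pooled peak, coloured by complex. The grey band is the 5' window, and cox-6B is left out because its Ensembl 5' end is 86384 bp away. The 4 final-set peaks lie between 255 bp upstream and 49 bp downstream, and ucr-2.3 is the strongest outside the band, with a signal of 23.8.

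The 42 listed genes were set beside other genes of mitochondrial function. Counting assembly genes, these include 8 further genes of complex I, 15 of complexes III and IV and 4 of ATP synthase. The comparison is therefore not of the chain with genes outside it. Of the 42 listed genes, 83.3% had a pooled peak and 23.8% had one with q under 0.05. Of 94 other genes found in the annotation, of 97 listed, 68 had a pooled peak (72.3%) and 5 had one with q under 0.05 (5.32%), against 57.9% and 4.67% of all genes. None had a final-set peak, against 0.596% of all genes. The difference between the lists was not tested. Among the 8 other complex I genes 4 had a pooled peak and 1 passed q under 0.05. The strongest, of signal 24.0, was at nduf-2.2, with its summit closer to the 5' end of dlc-1. Among the 15 further genes of complexes III and IV 8 had a pooled peak and none passed q under 0.05. Of 19 genes of the citric acid cycle and pyruvate dehydrogenase 18 had a pooled peak, led by sucl-1, a succinyl-CoA ligase gene, at 22.1 and 321 bp upstream. Of 17 carrier and membrane genes 13 had one, led by ant-1.1, an adenine nucleotide translocator gene, at 19.4 and 21 bp upstream. Of 14 mitochondrial stress response genes 10 had one, led by hsp-60, a chaperone gene, at 20 (rank 775), although that summit lay 5988 bp past the 5' end and 902 bp from the 5' end of Y22D7AL.4. All 4 further ATP synthase genes had a pooled peak and 1 passed q under 0.05. Of 9 ubiquinone synthesis genes 6 had one, and of 8 genes for the upkeep and expression of mitochondrial DNA 5 had one, with none past q under 0.05 in either list. A list of 18 more complex I genes, added after the annotation had been read, had a pooled peak at 13 and none with q under 0.05. It was not part of the 94 genes above.

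The 42 genes lay on all nuclear chromosomes, with 11 on chromosome I, 6 on II, 10 on III, 5 on IV, 4 on V and 6 on X. The 4 final-set members were on chromosomes I, with 2, and II and III, with 1 each.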

How the data were processed

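The deposited peak lists on ce11 were used, with per-peak signal values and −log10 q-values as the authors' caller gave them. Each replicate list, per the deposited notes, came from that replicate's alignment against a control, the pooled list from all replicates, and the final set from both by the irreproducible discovery rate. The aligner and the caller with its settings were not given in the sources used here, and depth per library is unknown. Lists on ce10 were not used.

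Peaks were ranked by signal within a list. Gene windows came from Ensembl release 115 (WBcel235, which is ce11). Summits of different lists within 100 bp were taken as the same place. No test was made, since there is 1 group. Technical libraries were already merged within replicates. Window counting was tested on simulated data. The members, gene lists and sequence words were chosen with earlier results of these data known. By rule, fuller values were given for the 12 members with the strongest pooled peaks and those matched in every replicate. Paralogs, and genes of other lists with 1 of the 1000 strongest peaks, were named by rule with fewer values. Other genes were named after their values were seen. Alternatives are given at the end. Python 3.11.15, numpy 2.4.6, pandas 2.3.3 and matplotlib 3.10.9 were used.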

Additional observations from a re-analysis of the deposited data

How the results depend on the processing

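The 35 members with a pooled peak became 18 among the 5000 strongest peaks, 9 among the 1000 strongest and, in an alternative chosen after seeing the data, 10 with q under 0.05. By construction these keep fewer peaks. The 4 final-set members became 2, cox-5A and cox-5B, when the weaker part of the final set, split at its median signal, was left out. The 21 members with a peak in every replicate list became 12 among the 10000 strongest of each list and 8 among the 5000 strongest, and leaving out a replicate gave 25 to 27. The 4 members with a summit in every replicate within 100 bp became 2 within 50 bp, 9 within 200 bp and 1 among the 5000 strongest of each list. Leaving out a replicate gave 6 to 11, with 7 without replicate 1, 11 without replicate 2 and 6 without replicate 3, and asking for fewer lists can only raise this count. No other alternative moved a count by over 1.5 times. The final-set count was 5 with 2000 bp upstream or with any base of the interval. No paired analysis was possible because there is 1 group. With no read counts, depth cannot be weighed.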
